A study of Homo sapiens with 6 samples.

Results

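The iron genes described here are 9 genes of iron uptake, storage, export and sensing, chosen by name: IREB2, ACO1, TFRC, FTH1, FTL, SLC40A1, SLC11A2, NCOA4 and HMOX1. Of the 30015 genes in the table analysed, 8 are among these 9. SLC40A1, which encodes the iron exporter ferroportin, was not analysed here. All 8 passed the minimum for the test, an average of 10 normalized counts over the libraries, as did 15251 genes in all.

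RNA-seq was performed on HMV-II, an established line of human mucosal melanoma cells that the labels place in vaginal tissue. The Vector group holds 3 libraries of control cells, labelled as Vector and wild type but headed shNC in the table. The control that the paper describes for its stable lines is a scrambled shRNA, so these are not unmodified cells. The shEZH2 group holds 3 libraries of cells in which EZH2, the histone H3 lysine 27 methyltransferase, was stably depleted with an shRNA. By the paper's methods, stable lines were made by lentiviral infection and then selected with puromycin. All were grown in F10 medium with fetal bovine serum and penicillin-streptomycin. No further treatment and no added iron is described for either group. The comparison asks how the transcripts of iron handling differ with EZH2 depletion. It rests on 1 cell line and 1 knockdown group, headed sh1 in the table, so effects of that shRNA other than on EZH2 cannot be told apart. The labels do not say that the replicates were separate cultures, so p-values measure only the spread between these libraries.

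Iron enters most cells bound to transferrin, which is taken up with the transferrin receptor TFRC, and leaves the endosome through the transporter SLC11A2, also called DMT1. Cytosolic iron is stored in ferritin, a shell of FTH1 and FTL chains, and NCOA4 carries ferritin to the lysosome for breakdown. HMOX1 releases iron from heme. ACO1 and IREB2 encode the iron regulatory proteins IRP1 and IRP2, which bind hairpins called iron-responsive elements when iron is low. Bound at the 5′ end of the ferritin mRNAs they block translation, and bound in the 3′ untranslated region of TFRC they protect the mRNA from decay. Free iron drives lipid peroxidation, the reaction that kills cells in ferroptosis. The libraries measure mRNA, not iron or protein.

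The hairpins that link these genes were searched for in the annotated transcripts, because the iron regulatory proteins are known to bind them. The search asked for CNNNNNCAGTGN with all 5 bases after the first C able to pair with the 5 bases that follow the motif. Each match is given 5′ to 3′ as 29 bases with the 6-base loop in capitals.
FTH1 element: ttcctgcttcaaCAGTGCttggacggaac
FTL element: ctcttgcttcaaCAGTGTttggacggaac
TFRC element 1: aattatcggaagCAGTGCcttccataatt
TFRC element 2: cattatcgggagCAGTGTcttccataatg
TFRC element 3: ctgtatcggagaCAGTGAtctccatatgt
TFRC element 4: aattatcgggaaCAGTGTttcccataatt

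The ferritin elements lie in the 5′ untranslated region of each canonical transcript, at chr11:61735046-61735074 on the minus strand for FTH1 and chr19:49468592-49468620 on the plus strand for FTL (GRCh37, GENCODE). They share 26 of 29 bases. The TFRC elements all lie in its 3′ untranslated region on the minus strand of chromosome 3, at chr3:195777850-195777878, chr3:195777446-195777474, chr3:195777381-195777409 and chr3:195777334-195777362. SLC40A1 has 1 match in its 5′ untranslated region. The transcripts of IREB2, ACO1, SLC11A2, NCOA4 and HMOX1 have 0 matches to these letters. The search allowed no unpaired or extra base in the paired stretch, so it can miss elements in any member. Having 0 matches thus does not show that a transcript lacks an element. A match was found in 259 of 19894 canonical coding transcripts (1.3%). A match describes the letters and does not show binding in these cells.

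Vector replicate 2 stood apart from the other Vector libraries. The mean chi-square per gene, near 1 when libraries differ only by sampling, was 2.14 for Vector replicates 1 and 3. Paired with Vector replicate 2 they gave 119 and 117, and pairs of shEZH2 libraries gave 6.49 to 23.9. In Vector replicate 2 short genes were low and long genes high. The median log2 deviation from the other Vector libraries was -0.54 in the shortest of 5 length classes of equal size and 0.42 in the longest. Fold changes below are therefore also given without that library, a view chosen after seeing the data from the fits that leave out each library in turn.

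EZH2 itself was lower with shEZH2. Here and below, the values of a group are listed in the order of replicates 1, 2 and 3. It had 483, 437 and 552 normalized counts in the Vector libraries and 237, 247 and 225 in the shEZH2 libraries, a log2 fold change of -1.04 (adjusted p = 0.0142 in limma), and -1.12 without Vector replicate 2. Depth was 13400290 to 15923029 reads in Vector libraries and 16129171 to 19128939 in shEZH2 libraries. All 8 melanocyte lineage markers on a fixed list were detected, with summed counts of 75515 to 100744 in Vector and 78898 to 85355 in shEZH2 libraries, most of them from PMEL. The sums hide changes of single markers, since TYRP1 (1.68) and MLANA (0.88) were higher and TYR (-0.97) lower on the log2 scale, or 1.64, 0.39 and -1.22 without Vector replicate 2. Macrophage markers, of interest because macrophages handle much iron, summed to 8.15 to 37.3 and 12.4 to 21.6 normalized counts, and 0 of 4 lymphocyte markers had a row.

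Of the 8 iron genes, 2 were higher with shEZH2 (ACO1 and TFRC), 1 was lower (IREB2), and 5 did not pass the threshold (FTH1, FTL, SLC11A2, NCOA4 and HMOX1). The threshold was a change of more than 1.5-fold in either direction whose unadjusted p was under 0.05, in limma on log2(normalized count + 1). Over all genes tested, 14.6% passed it, 7.55% as higher and 7.07% as lower. With an adjusted p under 0.05, 2 of the 8 were called (ACO1 and TFRC), against 4.12% of all genes. In 3 of the 8 genes no shEZH2 value fell within the Vector range or the reverse, which held for 34.8% of all genes. The median log2 fold change was 0.13 over the 8 genes and 0.04 over all genes tested. Fewer cells of a kind and less RNA per cell cannot be told apart in such bulk samples.

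**Figure D1:**
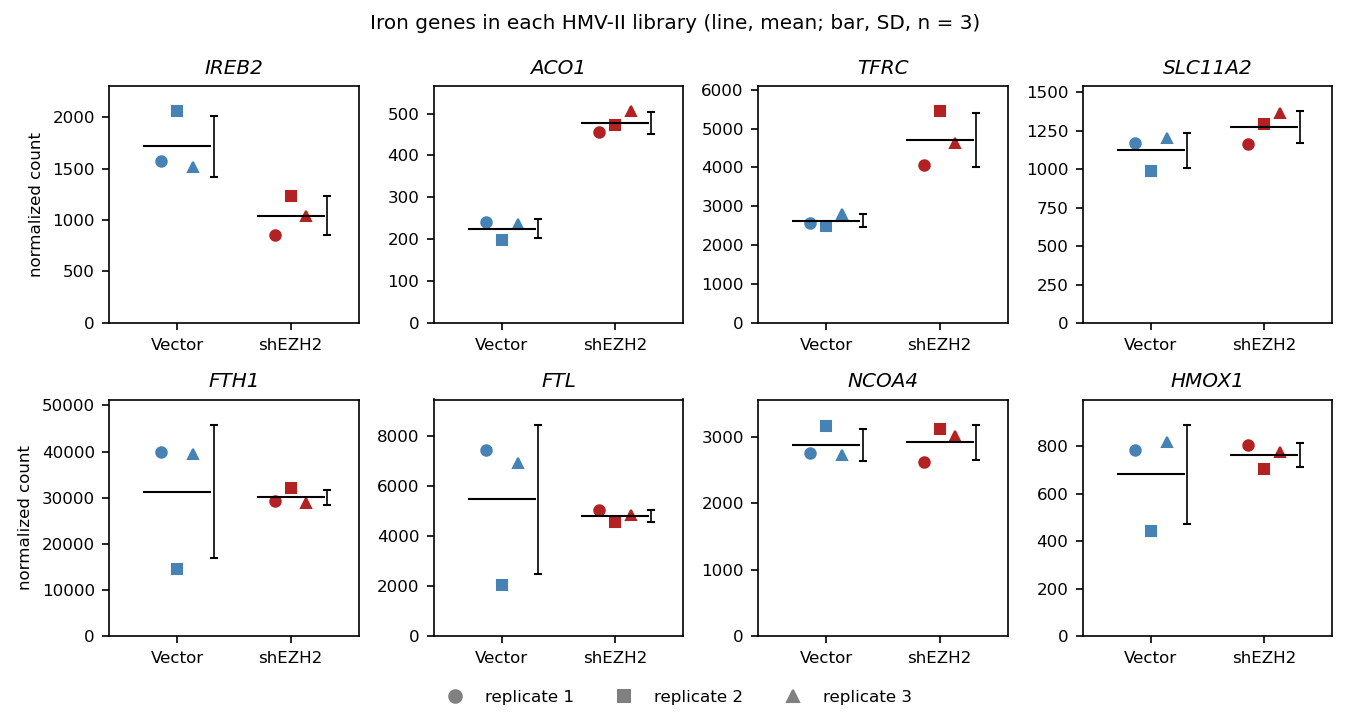
Normalized count (vertical axes, from 0) of 8 iron genes in the 3 Vector and 3 shEZH2 libraries of HMV-II cells; symbols mark replicates, lines the group mean and bars the SD. IREB2, ACO1 and TFRC have groups that do not overlap, and Vector replicate 2 is far below the other Vector libraries in FTH1 and FTL.

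The mRNAs of the iron sensors moved in opposite directions. ACO1 (ENSG00000122729, chromosome 9, 32384603 to 32454769, plus strand, GRCh38), which encodes IRP1, a protein that also serves as cytosolic aconitase when it carries an iron-sulfur cluster, was higher. It had 241, 199 and 236 normalized counts in the Vector libraries and 455, 472 and 505 in the shEZH2 libraries. The 3 shEZH2 libraries were all above the 3 Vector libraries. The means were 225 ± 22.8 and 477 ± 25.4 (SD, n = 3 each), and the log2 fold change was 1.08 (standard error 0.14, 95% interval 0.75 to 1.42, adjusted p = 0.0123 in limma), or 2.12-fold. Without Vector replicate 2 it was 1.00 (adjusted p = 0.000138).

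ACO1 had the smallest p of the 8 iron genes, rank 105 of the 15251 genes tested. Its adjusted p ran from 2.97e-08 to 0.123 over the alternatives, and was over 0.05 with shEZH2 replicate 1, 2 or 3 left out (0.0777, 0.0822 and 0.123). ACO1 passed the threshold in all 20 alternatives, with a log2 fold change between 1.00 and 1.17.

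IREB2 (ENSG00000136381, chromosome 15, 78437431 to 78501456, plus strand, GRCh38), which encodes IRP2, the sensor that is degraded through the ubiquitin ligase subunit FBXL5 when iron is ample, was lower. It had 1577, 2056 and 1515 normalized counts in the Vector libraries and 852, 1235 and 1039 in the shEZH2 libraries. The groups did not overlap. The highest Vector value is that of the library that stood apart, and the groups were also apart without it. The means were 1716 ± 296 and 1042 ± 191 (SD, n = 3 each). The log2 fold change was -0.72 (standard error 0.19, 95% interval -1.16 to -0.28), with an unadjusted p that passed and an adjusted p of 0.0800 in limma that did not.

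Vector replicate 2 was 0.41 above the other Vector libraries in IREB2 on the log2 scale, the median deviation of genes in its length class being 0.42. Without that library the log2 fold change of IREB2 was -0.59 (95% interval -0.88 to -0.29, adjusted p = 0.0105 in limma), at the edge of the fold threshold. With the length trend removed from each library it was -0.53 (adjusted p = 0.0383), short of the fold threshold. Over the alternatives it stayed below 0, between -0.85 and -0.52, with adjusted p from 2.79e-05 to 0.278.

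The ratio of IREB2 to ACO1 mRNA, in reads per length, was 4.58, 7.22 and 4.48 in the Vector libraries and 1.31, 1.83 and 1.44 in the shEZH2 libraries. IREB2 mRNA thus stayed above ACO1 mRNA in every library, but by less with shEZH2. The mean ratio was 5.43 ± 1.55 in Vector and 1.53 ± 0.271 in shEZH2 cells (SD, n = 3 each), and the mean log2 ratios differed by -1.81, or by -1.59 without Vector replicate 2. No test was made of this ratio.

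TFRC (ENSG00000072274, chromosome 3, 196027183 to 196082189, minus strand, GRCh38), the receptor for iron-loaded transferrin, was higher. It had 2576, 2490 and 2809 normalized counts in the Vector libraries and 4060, 5441 and 4640 in the shEZH2 libraries. Every shEZH2 library exceeded every Vector library. The means were 2625 ± 165 and 4714 ± 694 (SD, n = 3 each), and the log2 fold change was 0.84 (standard error 0.15, 95% interval 0.48 to 1.19, adjusted p = 0.0306 in limma), or 1.78-fold. Without Vector replicate 2, which differed little from the other Vector libraries in TFRC (-0.11 on the log2 scale), it was 0.80 (adjusted p = 0.000612).

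The adjusted p of TFRC ran from 5.80e-07 to 0.178 over the alternatives, and was over 0.05 in the fits without any 1 library other than Vector replicate 2. TFRC passed the threshold in 19 of 20 alternatives, the exception being a fold change threshold of 1. For IREB2, ACO1 and TFRC alike, permuting the libraries over all 20 arrangements (exact two-sided permutation test) gave p = 0.1, the smallest it can give with 3 against 3.

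The bases upstream of ACO1 and TFRC, the members that rose, are shown with GC boxes in capitals. The GC box, GGGCGG on either strand, is a motif of SP and KLF family factors. The RefSeq promoters used here (GRCh38.p14) cover 7 of the 9 genes, without FTH1 and HMOX1. Only bases outside the gene's span in the table are given, for ACO1 210 bases at chr9:32384393-32384602 on the plus strand and for TFRC 151 bases at chr3:196082190-196082340 on the minus strand.
ACO1 upstream: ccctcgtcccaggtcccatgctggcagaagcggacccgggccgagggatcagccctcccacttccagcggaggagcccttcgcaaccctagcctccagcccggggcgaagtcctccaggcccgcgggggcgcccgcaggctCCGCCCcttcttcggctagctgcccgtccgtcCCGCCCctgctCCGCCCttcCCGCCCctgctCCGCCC
TFRC upstream: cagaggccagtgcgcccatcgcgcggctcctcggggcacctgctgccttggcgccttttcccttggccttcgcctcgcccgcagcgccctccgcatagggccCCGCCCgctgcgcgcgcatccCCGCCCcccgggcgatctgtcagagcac

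The ACO1 window holds 5 GC boxes, a number reached in 2.38% of the 27305 RefSeq promoters cut to the same 210 positions. The TFRC window holds 2, reached in 10.1% of promoters cut to its 151 positions. Members that did not pass the threshold or were not analysed hold GC boxes too: FTL has 2 in 242 bases (reached in 23.5% of promoters), NCOA4 has 1 in 159 bases (27.1%) and SLC40A1 has 3 in 250 bases (14%). The IREB2 and SLC11A2 entries lie wholly within the gene's span and were not searched. These matches are descriptions of the letters, and no binding was measured in the files used here.

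SLC11A2 (ENSG00000110911), the transporter that moves iron out of the endosome, did not pass the threshold. It had 1171, 991 and 1207 normalized counts in the Vector libraries and 1162, 1297 and 1363 in the shEZH2 libraries. The groups overlap. The log2 fold change was 0.18 (95% interval -0.14 to 0.51, adjusted p = 0.451 in limma), and 0.10 without Vector replicate 2. The gain of TFRC thus stood beside a difference in SLC11A2 whose interval reaches from a slight fall to a rise of 0.51 on the log2 scale. The difference between the changes of these genes was not tested.

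The ferritin genes were the members in which Vector replicate 2 decided the value. FTH1 (ENSG00000167996), the heavy chain that oxidizes iron for storage, had 39827, 14690 and 39566 normalized counts in the Vector libraries and 29312, 32045 and 28904 in the shEZH2 libraries. The shEZH2 libraries lie between Vector replicate 2 and the other Vector libraries. With all 6 libraries the log2 fold change was 0.08 (standard error 0.38, 95% interval -0.81 to 0.97, adjusted p = 0.915 in limma). Without Vector replicate 2 it was -0.40 (95% interval -0.60 to -0.20, adjusted p = 0.00869), with no overlap between the groups but short of the fold threshold.

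FTL (ENSG00000087086), the light chain that aids iron mineral formation, showed the same arrangement. It had 7437, 2055 and 6932 normalized counts in the Vector libraries and 5055, 4555 and 4830 in the shEZH2 libraries. The log2 fold change was 0.02 (standard error 0.46, 95% interval -1.04 to 1.09, adjusted p = 0.981 in limma). Without Vector replicate 2 it was -0.58 (95% interval -0.78 to -0.38, adjusted p = 0.00102), also just short of the fold threshold. With the length trend removed and all 6 libraries kept, the values were -0.16 for FTH1 and -0.13 for FTL (adjusted p = 0.693 and 0.824).

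For both chains the group means and the log2 values differ in sign. The mean counts were 31361 ± 14438 and 30087 ± 1708 for FTH1 and 5475 ± 2972 and 4813 ± 251 for FTL (SD, n = 3 each), lower with shEZH2, while the log2 fold changes were above 0. Over the alternatives the log2 fold change of FTH1 ran from -0.44 to 0.32 (adjusted p from 0.00153 to 0.976) and that of FTL from -0.58 to 0.35 (adjusted p from 0.000166 to 0.991). No direction is drawn for ferritin from the 6 libraries together.

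**Figure D2:**
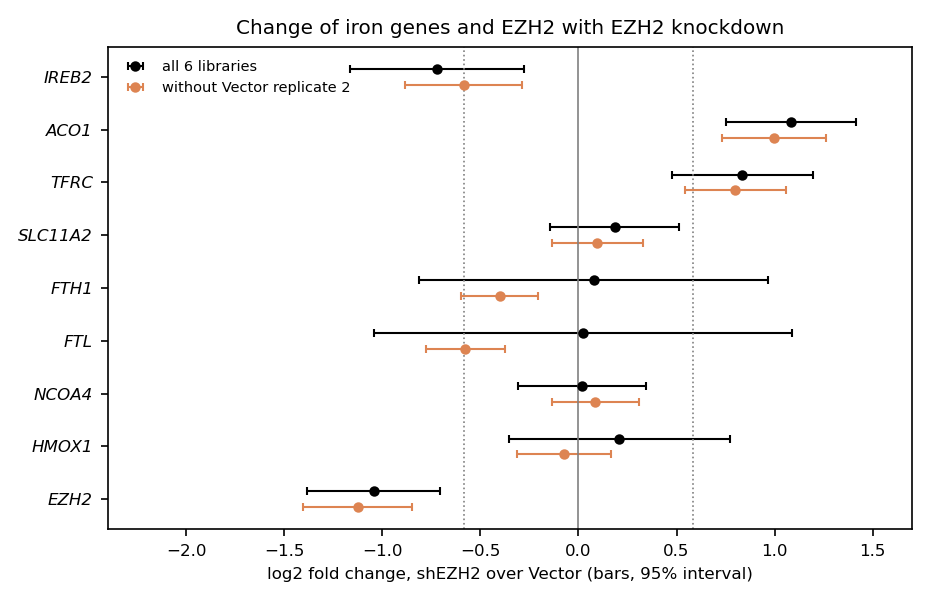
Log2 fold change of shEZH2 over Vector (horizontal axis) with its 95% interval in limma for 8 iron genes and EZH2, with all 6 libraries (black) and without Vector replicate 2 (orange); dotted lines mark 1.5-fold in either direction. FTH1 moves from 0.08 to -0.40 and FTL from 0.02 to -0.58, while ACO1, TFRC, IREB2 and EZH2 keep their side of 0.

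The 2 shortest members were those in which Vector replicate 2 departed most. FTL, with a gene length of 878 bases in the table, was 1.80 lower on the log2 scale there than in the other Vector libraries, and FTH1, with 2030 bases, was 1.43 lower. HMOX1, with 2405 bases, was 0.85 lower. IREB2, the longest at 10806 bases, was 0.41 higher, but SLC11A2, at 10145 bases, was 0.26 lower. FTL lay at the 12.9th percentile and FTH1 at the 21.5th percentile of deviations in the shortest length class, so both were below the lower quartile for genes of their length. This was not particular to ferritin. In their own classes SLC11A2 lay at the 10.2th, HMOX1 at the 21.1th and ACO1 at the 21.4th percentile. TFRC (31.6), IREB2 (49.3) and NCOA4 (73.1) lay above the lower quartile.

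**Figure D3:**
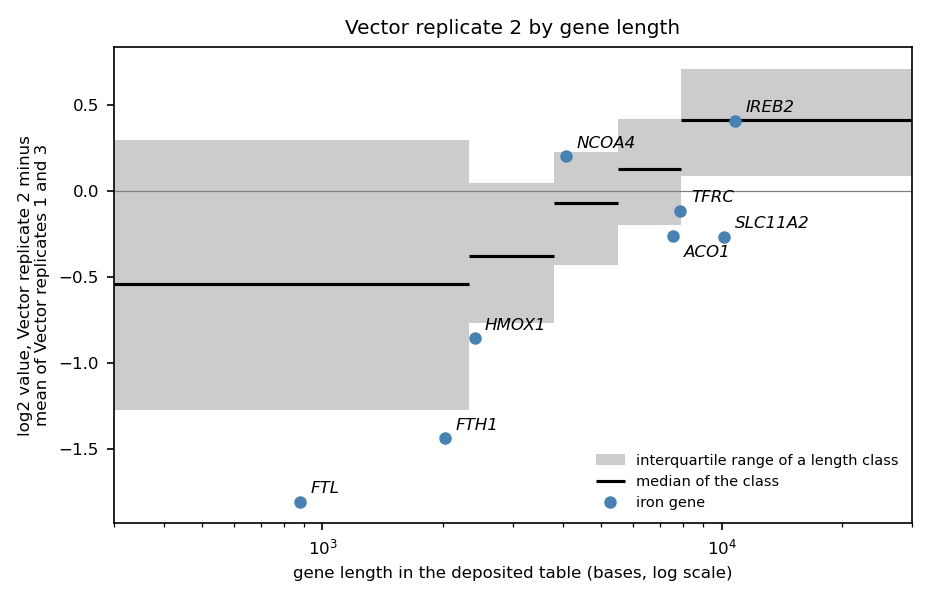
Log2 value in Vector replicate 2 minus the mean of Vector replicates 1 and 3 (vertical axis) against gene length (bases, log axis), with the median and the interquartile range of each of 5 length classes of genes and the 8 iron genes as points. The medians rise from -0.54 in the shortest class to 0.42 in the longest, and FTL at -1.80 and FTH1 at -1.43 lie lowest among the iron genes.

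The mRNA ratio of the 2 ferritin chains moved little. FTH1 to FTL, in reads per length, was 2.32, 3.09 and 2.47 in the Vector libraries and 2.51, 3.04 and 2.59 in the shEZH2 libraries. The groups overlap, and the mean log2 ratios differed by 0.05, or by 0.18 without Vector replicate 2. The ratio of TFRC to the sum of both chains was 0.0116, 0.0330 and 0.0130 in the Vector libraries and 0.0255, 0.0329 and 0.0298 in the shEZH2 libraries. Vector replicate 2 was above every shEZH2 library and the other Vector libraries were below them, so the groups overlap. The mean log2 ratios differed by 0.78 with all libraries and by 1.25 without Vector replicate 2, and no test was made of either ratio.

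Reads of near-identical copies and overlapping genes bear on the ferritin values. FTH1 has 15 pseudogene copies in the table, whose reads summed to 0.653% to 1.10% of those of FTH1, and FTL has 3, with 0.118% to 0.567%. How reads shared with the copies were counted is not given in the sources used here. FTH1 also overlaps BEST1, a chloride channel gene on the other strand, from 61959718 to 61965515 on chromosome 11 of GRCh38. BEST1 had 5459, 3896 and 5469 normalized counts in the Vector libraries and 4218, 3675 and 3814 in the shEZH2 libraries, a mean of 14.4% of that of FTH1. The strandedness of the libraries is not given in the sources used here, so reads of FTH1 and BEST1 cannot be told apart in the overlap. The genes overlapping IREB2 (AC027228.1) and TFRC (AC024937.1 and RNU7-18P) each had at most 0.175% of the member's mean.

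NCOA4 (ENSG00000266412), the cargo receptor for ferritin breakdown, did not differ beyond the spread. It had 2756, 3156 and 2722 normalized counts in the Vector libraries and 2618, 3114 and 3014 in the shEZH2 libraries. The groups overlap, and the log2 fold change was 0.02 (95% interval -0.31 to 0.34, adjusted p = 0.949 in limma), and 0.09 without Vector replicate 2. The interval leaves out the 2.12-fold size of the change in ACO1 and changes past the fold threshold in either direction.

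HMOX1 (ENSG00000100292), the inducible heme oxygenase, had 783, 444 and 820 normalized counts in the Vector libraries and 805, 706 and 774 in the shEZH2 libraries. Vector replicate 2 was again the lowest of the 6 libraries, and the groups overlap. The log2 fold change was 0.21 (95% interval -0.35 to 0.77, adjusted p = 0.615 in limma), and -0.08 without Vector replicate 2 (95% interval -0.31 to 0.16). Its direction therefore rests on that library.

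Without Vector replicate 2, 3 of the 8 genes passed the threshold, against 12.7% of all genes, and 5 had an adjusted p under 0.05 (IREB2, ACO1, TFRC, FTH1 and FTL), against 18.9%. That fit takes the Vector spread from 2 libraries that were closer to each other than any other pair within a group. The median log2 fold change was then 0.0054 over the 8 genes and -0.0059 over all genes tested.

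Per length, the iron genes spanned a wide range of levels, given here as RPKM, which scales the counted reads by gene length and library depth. In Vector cells the mean was 954 ± 425 for FTH1, 385 ± 204 for FTL, 44.0 ± 4.85 for NCOA4, 20.7 ± 1.10 for TFRC, 17.6 ± 5.01 for HMOX1, 9.92 ± 1.98 for IREB2, 6.88 ± 0.557 for SLC11A2 and 1.85 ± 0.143 for ACO1 (SD, n = 3 each). The mRNAs of the ferritin chains were thus the highest and those of the sensors among the lowest. FTH1 was above FTL within each library, although their ranges over the Vector libraries overlap, and TFRC and HMOX1 also overlap in Vector cells.

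With shEZH2 the levels per length were 960 ± 66.4 for FTH1, 355 ± 18.2 for FTL, 46.2 ± 4.13 for NCOA4, 38.7 ± 5.93 for TFRC, 20.5 ± 1.28 for HMOX1, 8.12 ± 0.583 for SLC11A2, 6.24 ± 1.18 for IREB2 and 4.09 ± 0.163 for ACO1 (SD, n = 3 each). TFRC then reached the range of NCOA4, though it stayed below NCOA4 within each library. The means of IREB2 and SLC11A2 changed places. IREB2 lay between 5.14 and 7.48 and SLC11A2 between 7.46 and 8.54, so their ranges overlap. Within each library, SLC11A2 was above IREB2 in shEZH2 cells and below it in Vector cells. On this scale the SLC11A2 groups are narrowly apart, with 6.26 to 7.34 in Vector cells, whereas in normalized counts they overlap. The share of all genes whose groups are apart was not computed on this scale. ACO1 remained the lowest of the 8 in every library, from 1.69 to 1.94 in Vector and from 3.92 to 4.25 in shEZH2 cells.

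**Figure D4:**
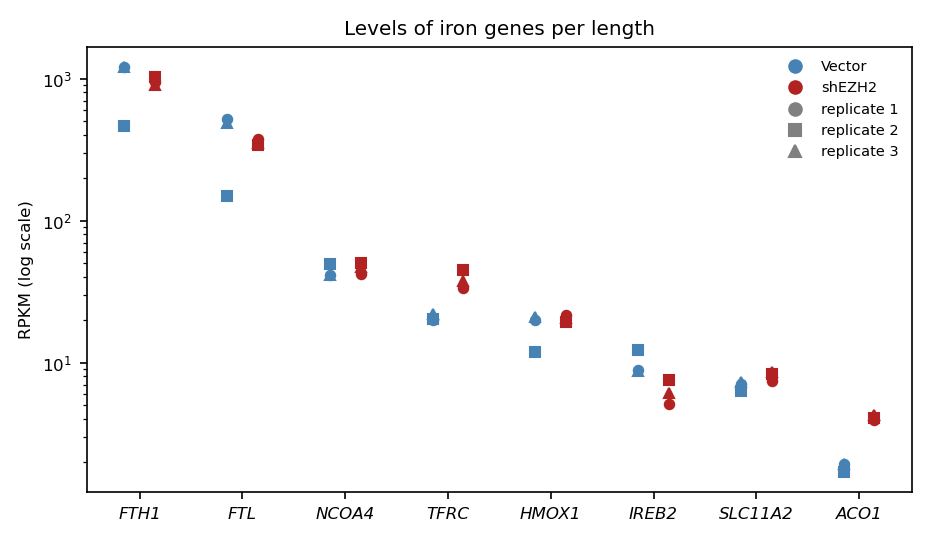
RPKM (reads scaled by gene length and library depth, log axis) of 8 iron genes in each Vector (blue) and shEZH2 (red) library, with symbols for the replicates and genes ordered by the Vector mean. FTH1 and FTL lie highest and ACO1 lowest. The Vector and shEZH2 points are apart for TFRC, IREB2 and ACO1, as in normalized counts. Those of SLC11A2 are narrowly apart here but overlap in normalized counts. The share of all genes apart on this scale was not computed.

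The genes whose pattern over the 6 libraries was most like that of ACO1 were HSD17B7, ENO2 and HSPA8, out of 11890 genes averaging 50 or more normalized counts. HSD17B7, an enzyme of cholesterol synthesis, had a root mean square difference from ACO1 of 0.0484 in centred log2 values. It was 0.0492 for ENO2, a neuronal form of the glycolytic enzyme enolase, and 0.0527 for HSPA8, the constitutive cytosolic chaperone HSC70. Their log2 fold changes were 1.06, 1.03 and 1.15, or 0.94, 0.94 and 1.08 without Vector replicate 2. They were picked for likeness to ACO1 over the same 6 libraries. Higher values in all 3 shEZH2 libraries therefore follow from the choice and are no separate result.

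Beyond the 9, a further 79 genes of iron and heme handling were placed on 8 lists by role. Of these, 77 had a row and 61 were tested, of which 1 was higher, 2 were lower and 58 did not pass the threshold. This is 4.92% called, against 14.6% of all genes tested. With an adjusted p under 0.05, 1 of the 61 was called (SLC39A8). Without Vector replicate 2, 2 passed the threshold (SLC39A8 and TF), against 12.7% of all genes, and 10 had an adjusted p under 0.05 in limma, against 18.9%.

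Among 11 tested genes of iron uptake and reduction, 1 was higher and 1 lower. SLC39A8, which encodes ZIP8, a transporter of zinc, manganese and iron, had 334, 394 and 339 normalized counts in the Vector libraries and 534, 604 and 565 in the shEZH2 libraries. Its groups did not overlap, and the log2 fold change was 0.68 (adjusted p = 0.0402 in limma), and 0.75 without Vector replicate 2. TF, which encodes transferrin, the ligand of TFRC, had 934, 708 and 1001 normalized counts in the Vector libraries and 541, 509 and 547 in the shEZH2 libraries. The ligand's mRNA was thus lower in all 3 shEZH2 libraries, with a log2 fold change of -0.71 (adjusted p = 0.0570), and -0.86 without Vector replicate 2. The most abundant genes of the list did not pass, and their sign rests on Vector replicate 2. LRP1, a receptor that takes up heme bound to hemopexin, had -0.30 with all libraries and 0.07 without that library, where its normalized count was 14797, the other Vector libraries having 6971 and 6693. MELTF, the transferrin-related melanotransferrin, had -0.05 and 0.03.

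Both mitochondrial iron importers were short of the threshold. SLC25A37, mitoferrin-1, had 2763, 3167 and 2745 normalized counts in the Vector libraries and 2060, 2000 and 2125 in the shEZH2 libraries. Its groups did not overlap, and the log2 fold change was -0.49 (adjusted p = 0.0806 in limma), under the fold threshold in size, and -0.42 without Vector replicate 2. SLC25A28, mitoferrin-2, had -0.05, and -0.24 without it.

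Of the 4 tested genes of iron storage and chaperones, 0 passed in limma. PCBP2, a chaperone that delivers iron to ferritin, had 0.19, and 0.06 without Vector replicate 2. HERC2, a ligase that targets NCOA4, had -0.40, and -0.0070 without Vector replicate 2, which stood 1.17 above the other Vector libraries on the log2 scale. Of the 2 tested genes of iron export, 0 passed. FLVCR1, first described as a heme exporter, had 0.13, and HEPH, the ferroxidase hephaestin, had 0.38, or 0.30 and 0.34 without that library.

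Of the 4 tested genes of iron sensing and hepcidin control, 0 passed in limma. FBXL5, which targets IRP2 for degradation when iron is ample, had 0.23 (adjusted p = 0.484), and 0.03 without Vector replicate 2. BACH1, a heme-binding repressor of HMOX1 and of ferritin genes, had -0.44 (adjusted p = 0.303), and -0.23 without it.

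Of 2 tested other transcripts known to carry an iron-responsive element, 1 was lower. CDC42BPA, a kinase that acts on the cytoskeleton, had 1712, 3629 and 1720 normalized counts in the Vector libraries and 1101, 1469 and 1407 in the shEZH2 libraries. Vector replicate 2 stood 1.08 above the other Vector libraries on the log2 scale. The log2 fold change was -0.74 with all libraries (adjusted p = 0.195 in limma) and -0.38 without it, under the fold threshold. CDC14A, a phosphatase of the cell cycle, had 0.16, and 0.14 without it.

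Of 11 genes of heme synthesis and breakdown, all tested, 0 passed the threshold, and the median log2 fold change was 0.41 against 0.04 over all genes, or 0.14 against -0.0059 without Vector replicate 2. CPOX and ALAS1, enzymes of heme synthesis and the most abundant of the list, had 0.39 and -0.11, or 0.11 and -0.23 without it. In 5 of the 11 the groups were apart, against 34.8% of all genes, all higher with shEZH2 and named after their values were seen: ALAD (0.47), UROS (0.44), UROD (0.62), CPOX (0.39) and BLVRA (0.69). Vector replicate 2 was low in these as well, by 1.14 in UROD and by 1.04 in BLVRA on the log2 scale. Without it the values were 0.43 for ALAD, 0.37 for UROS, 0.24 for UROD, 0.11 for CPOX and 0.34 for BLVRA.

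Of 25 tested genes of iron-sulfur cluster assembly, 0 passed in limma. The median log2 fold change was 0.23, and it changed sign to -0.05 without Vector replicate 2, with 4 and 15 of the 25 genes below 0. HSPA9, the mitochondrial chaperone mortalin, had -0.30 in either fit, and CIAO1, of the cytosolic assembly pathway, had 0.15, or -0.05 without that library.

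**Figure D5:**
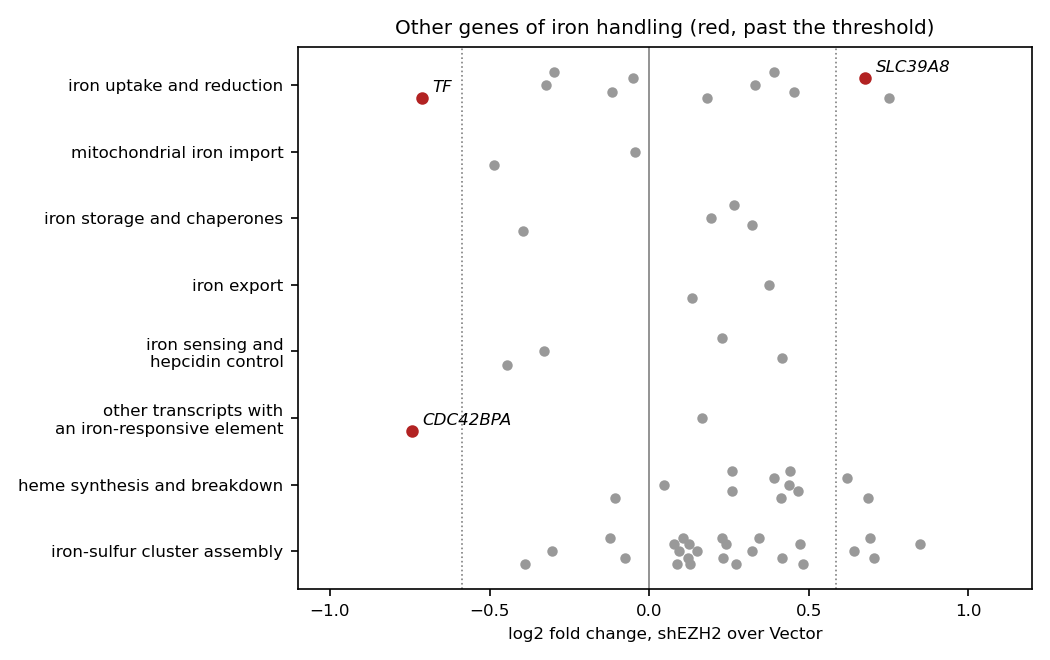
Log2 fold change of shEZH2 over Vector (horizontal axis) of the 61 tested genes on 8 lists of iron and heme handling, 1 point a gene, red where past the threshold, with dotted lines at 1.5-fold in either direction. SLC39A8 lies above the threshold and TF and CDC42BPA below it, and the genes of heme synthesis and breakdown have a median of 0.41, which is 0.14 without Vector replicate 2.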

How the data were processed

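Poly(A) RNA of 3 Vector and 3 shEZH2 libraries of HMV-II cells was sequenced by the authors, who counted reads per gene with featureCounts 1.5.0-p3 and used DESeq2 1.20.0. In the deposited table the authors give signal values, each gene's reads scaled by a size factor of the library. Its columns of group means were used only to check the means computed here. The authors' log2 fold changes and p-values were not used. Whole reads were recovered in each library for 100% of values (tolerance 0.001). The labels name hg19, but 47.0% of 15335 coding genes share a start or end with RefSeq GRCh38.p14, against 0.680% of 15287 with GRCh37, so gene coordinates are given as GRCh38. The aligner and strandedness are not given in the sources used here.

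limma 3.58.1 (lmFit, eBayes with trend) was run on log2(value + 1) for genes with a mean of at least 10, without a replicate block, with Benjamini-Hochberg adjustment over 15251 genes. Fold changes on this scale understate changes of low genes. The model was checked on simulated counts with the same spread in every library. A length trend was added to Vector replicate 2 only for the fit that removes it. The scatter seen in that library was not simulated, so the check does not cover it. Alternatives were edgeR 4.0.16 (TMM) and DESeq2 1.42.0 on the recovered reads, TMM scaling, pseudocounts of 0.1 and 5, no minimum or 50, a replicate block, removal of a gene length trend, other thresholds and each library left out. Array weights, and the length trend removed without Vector replicate 2, were added after seeing the data. The members, lists and rules were chosen with earlier results of these data known. Named were the members, EZH2, the other iron genes called and the 2 most abundant of each list, the genes overlapping a member, its copies, and the 3 genes nearest to ACO1. Results of some genes are not reported here, and those genes are not counted on the lists. Elements were searched in GENCODE v44 transcripts lifted to GRCh37. R 4.3.3 and Python 3.11.15 were used.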

Additional observations from a re-analysis of the deposited data

How the results depend on the processing

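ACO1 and EZH2 kept their direction and passed the threshold in all 20 alternatives, and TFRC in 19. IREB2 kept its direction in all 20 and passed in 14. The fold change of SLC11A2 stayed between 0.10 and 0.36 and did not pass in any. The difference in mean log2 ratio of IREB2 to ACO1 stayed between -1.95 and -1.59 with each library left out. Depth does not limit these genes, the fewest reads being 171, those of ACO1 in 1 Vector library. The spread of Vector replicate 2 limits FTH1, FTL and HMOX1.

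Calling by adjusted p left 345 higher and 279 lower genes and 0 lower members, and a fold change threshold of 1 left 463 and 335 genes, with 1 higher and 0 lower members, both stricter by construction. For the other alternatives below the cause was not tested. With edgeR the log2 fold change was -0.060 for FTH1 and -0.19 for FTL. With DESeq2, 3 members had an adjusted p under 0.05 (IREB2 with 0.0180, ACO1 and TFRC), against 2 in the main fit. The log2 fold change there was -0.071 for FTH1, -0.19 for FTL and -0.0062 for NCOA4, and 1644 genes had an adjusted p under 0.05, against 629. With the length trend removed it was -0.16 for FTH1, -0.13 for FTL, -0.077 for NCOA4 and -0.011 for HMOX1, with 1307 such genes, or 948 with the replicate block as well, and with 0 lower members. Array weights ran from 0.0724 for Vector replicate 2 to 8.62 for shEZH2 replicate 3, so the fit that uses them leans on the latter. That fit gave the lowest adjusted p of IREB2 and TFRC. With array weights the log2 fold change was -0.42 for FTH1, -0.54 for FTL and -0.050 for HMOX1, with 7128 such genes, 6 members under 0.05 and 0 lower members. With the length trend removed and without Vector replicate 2 it was -0.44 for FTH1, -0.56 for FTL and -0.12 for HMOX1, with 3436 such genes, 5 members and 0 lower members.

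With each library left out in turn, genes with an adjusted p under 0.05 ran from 4 to 2875 and members from 0 to 5, the highest without Vector replicate 2 and, for genes, the lowest without shEZH2 replicate 3. The log2 fold change ran from -0.40 to 0.32 for FTH1, from -0.58 to 0.35 for FTL, from -0.032 to 0.093 for NCOA4 and from -0.075 to 0.37 for HMOX1.

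With the replicate number as a block, 1 member had an adjusted p under 0.05 (ACO1), TFRC having 0.0556 in limma. The numbers pair nothing by the labels. The deviations of same-numbered libraries correlated at 0.28, 0.22 and -0.11, and those of differently numbered ones between -0.31 and 0.25. Each deviation is taken from the mean of its own group, so these values depend on each other. They cannot show whether libraries were paired. No other member changed its call under the block.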
